A study of Drosophila melanogaster with 14 samples.

Results

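Uextra is the sequence of the dm3 assembly of Drosophila melanogaster in which small scaffolds that could not be placed on a chromosome are strung together, apart from the unplaced scaffolds of the sequence U. Its 29004656 bases fill 29005 bins of 1 kb, and the bins described here are the 491 that held at least 10 reads summed over 8 libraries of ovary RNA, which is 1.69% of the bins of Uextra. Expression was compared between ovaries depleted of Cutoff (gene cuff) in the germline and control ovaries, from flies 3 to 14 days old. Ovaries labelled shCuff carried the driver P{GAL4::VP16-nos.UTR}CG6325MVD1 over the hairpin TRiP.GL00054 in the attP2 site, and ovaries labelled shWhite carried the same driver over the hairpin TRiP.HMS00017 in attP2, which targets the eye colour gene white. Ovary RNA depleted of ribosomal RNA (total RNA) gave 2 shCuff and 2 shWhite libraries, and RNA selected for poly(A) tails gave 1 of each. Nuclear run-on, in which engaged polymerases extend RNA that takes up bromo-UTP and is captured with an antibody, gave 1 shCuff library and 1 control library, whose flies were w[1118] with the same GAL4::VP16-nos.UTR driver insertion and no hairpin. The nos driver acts in germline cells, so the somatic follicle cells of these ovaries were not targeted.

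The germline of the fly ovary makes piRNAs, small RNAs that guide silencing of transposons, from long precursors transcribed out of piRNA clusters in heterochromatin. Clusters transcribed from both strands depend on a complex of the heterochromatin protein Rhino with Deadlock and Cutoff, and Cutoff is known to keep the polymerase going past termination and poly(A) sites within them. Unplaced scaffolds of this assembly are rich in transposon copies, satellite repeats and fragments of heterochromatin, and some scaffolds may be errors of assembly or sequence of another source. No dm3 annotation or sequence of Uextra was used here, so no bin is named by a gene or transposon, and the level of cuff and the markers of ovary cell types were not analysed here. Bins are named by their first base in dm3, so that bin 1338001 runs from 1338001 to 1339000.

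The libraries fell into 2 sets by the code in their titles. The first set held replicate 1 of total RNA (2950394 reads in shCuff and 3357617 in shWhite) and poly(A) RNA (10932667 in shCuff and 8366673 in shWhite). The second set held replicate 2 of total RNA (7344631 in shCuff and 5688669 in shWhite) and run-on (2511888 in shCuff and 2438627 in the control). The names of the deposited tables carry a mapping code that differs between the sets, which may be a limit on mismatches and which the labels do not explain. A difference between replicate 1 and replicate 2 therefore cannot be told apart from a difference in mapping. The second shCuff library of total RNA stood apart in how its reads were spread: outside Uextra and U, bins of 1 to 3 reads made up 8.15% of its bins with reads. That share was 35.2% in shWhite of the same set, and in the first set it was 39.5% in shCuff and 42.8% in shWhite. The labels do not say whether replicates are separate dissections, and the p-values below reflect library-to-library spread alone, which may be technical.

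Few parts of Uextra gave any read. Of its 29005 bins, 26474 held no read in any library, 2040 held 1 to 9 reads, and the 491 bins with at least 10 held 53060 of the 58190 reads of Uextra, or 91.2%. The share of bins that reached 10 reads was 1.69% for Uextra, 3.20% for U, 17.9% for the heterochromatic scaffolds and 45.0% for the chromosome arms. At the edge of the rule, 36 bins held 9 reads and 33 bins held 10. The 491 bins held a median of 26 reads (quartiles 15 and 63.5), so most of them had few reads per library. They lay scattered: 427 had no neighbour among the 491, the longest run was 3 bins (186001 to 189000), and 13.0% lay in runs, whereas 91.2% of arm bins with at least 10 reads adjoined another. The first 5 Mb held 117 of them, 23.8% of the 491, and 17.2% of all Uextra bins.

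Uextra as a whole had more reads in shCuff than in control ovaries in all 4 comparisons. In reads per 1000000 library reads (RPM), total RNA replicate 1 had 2555 in shCuff (7538 reads) and 1274 in shWhite (4279 reads). Total RNA replicate 2 had 513 RPM in shCuff (3767 reads) and 75.9 RPM in shWhite (432 reads). Poly(A) RNA had 1523 RPM in shCuff (16647 reads) and 394 RPM in shWhite (3296 reads), and run-on had 6489 RPM in shCuff (16299 reads) and 2433 RPM in the control (5932 reads). The shCuff library of each pair was the higher one, but shCuff replicate 2 lay below shWhite replicate 1, so that the total RNA groups overlapped across sets. The ratio of shCuff over control was 2.0 (95% interval 1.93 to 2.08) in the total RNA replicate 1 pair, 6.75 (6.11 to 7.48) in the replicate 2 pair, 3.87 (3.72 to 4.01) in poly(A) RNA and 2.67 (2.59 to 2.75) in run-on. These intervals are exact conditional (Clopper-Pearson) ones and cover counting error only. In bulk tissue, a change in the number of germline cells and a change in RNA per cell cannot be told apart.

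**Figure D1:**
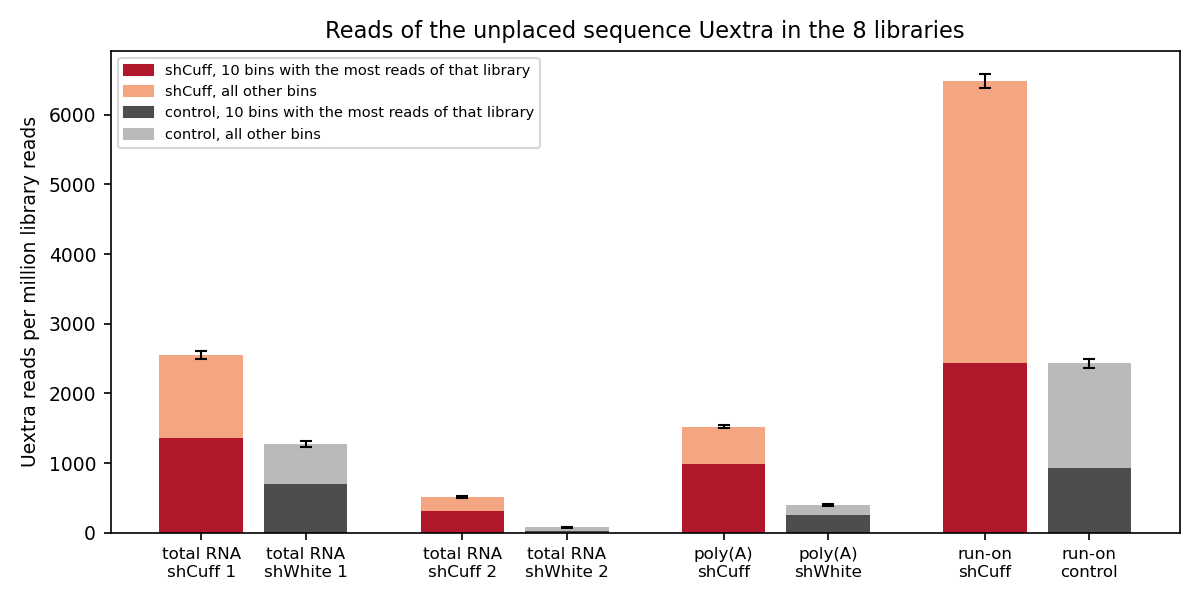
Reads of Uextra per 1000000 library reads in the 8 libraries, with shCuff (red) left of its control (grey) in each pair. Bar height is the summed level, the dark part is what the 10 bins with the most reads of that library held, and error bars are 95% intervals for counting error. Each shCuff bar is above its control, and the bars of total RNA replicate 2 are the lowest 2 of their genotypes (513 RPM in shCuff and 75.9 RPM in shWhite).

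The difference of the whole sequence in total RNA did not pass the test across features. Fitted in edgeR's quasi-likelihood test with 10-kb windows of the other sequences and a term for library set, the summed reads of Uextra had a log2 change of 1.87 (SE 0.50), with an adjusted p of 0.686 over 4341 features. The DESeq2 fit with the same terms gave 1.84 with an adjusted p of 0.00261, and edgeR without the filter on low windows gave 1.87 with an adjusted p of 0.000107, so the call depended on the tool and the filter. In limma it was 0.04 on log2(RPKM + 1) and 0.29 on log2(RPKM + 0.1), with adjusted p of 0.966 and 0.832, where both pseudocounts exceed the RPKM of Uextra over its whole length. Without the term for set the estimate was 1.18 with an adjusted p of 1.00. With 3 libraries the term for set cannot be kept, so a fit that leaves out a library changes both choices and sets libraries of different sets against each other. Such fits gave -0.40 without shCuff replicate 1, 0.27 without shWhite replicate 2, 1.92 without shCuff replicate 2 and 4.34 without shWhite replicate 1, whereas the ratio within each set was above 1, as given above.

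In each pair of libraries the ratio of summed reads over control was larger in Uextra than in the other repeat-rich sequences of the assembly. Per bin this did not hold throughout. Among bins with at least 10 reads over the 8 libraries, 48.7% in Uextra and 56.5% in U were at least 2-fold higher in run-on. For the replicate 2 pair these shares were 14.5% in Uextra, 25.5% in U, 19.0% in the heterochromatic scaffolds and 22.7% in the arms. With at least 10 reads in the 2 libraries compared, Uextra had larger shares than U. They were 71.3% against 68.7% in run-on and 92.2% against 79.3% in the replicate 2 pair. On the log2 scale the ratio in Uextra exceeded that of the heterochromatic scaffolds by 0.83 (0.76 to 0.89, counting error only) in the total RNA replicate 1 pair, by 2.77 (2.62 to 2.91) for replicate 2, by 1.81 (1.75 to 1.87) in poly(A) RNA and by 0.89 (0.84 to 0.94) in run-on. It exceeded that of the arms by 1.04, 2.73, 1.93 and 1.45 in the same order. Against U the differences were 0.60 for replicate 1, 5.76 for replicate 2, 2.04 for poly(A) RNA and 1.05 for run-on. The U value of the replicate 2 pair rests on bin 5301001 of U, the most abundant of the genome, which held 0.128% of shCuff replicate 2 and 1.51% of shWhite replicate 2. Over the 4 total RNA libraries, the level of Uextra relative to the heterochromatic scaffolds or to the arms gave p = 0.667 for each in a 2-sided exact permutation test of genotype, and relative to U it gave p = 0.333, the smallest p that an exact test of 2 against 2 libraries allows. This test exchanges libraries across sets, so the difference between sets enters its p, and within each set the shCuff library had the higher relative level against all 3 sequence classes.

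In poly(A) RNA, and likewise by run-on, each 1-Mb section of Uextra with reads had an excess, which could rest on a single bin. Cut into 29 sections of 1 Mb, Uextra had a higher RPM in shCuff than in control in 29 sections in poly(A) RNA, with ratios of 1.30 to 75.5, and in 29 sections in run-on, with ratios of 1.27 to 6.20. The ratio of 75.5 belongs to the section of bin 9061001, which held 732 of the 789 shCuff poly(A) reads there. The total RNA replicate 1 pair had 28 sections higher and 1 lower, and the replicate 2 pair had 21 higher and 8 lower. The first 5 Mb had ratios of 2.42 (replicate 1 pair), 11.3 (replicate 2 pair), 4.32 (poly(A) RNA) and 2.9 (run-on), against 1.81, 3.45, 3.25 and 2.62 in the rest. Bins of Uextra with 1 to 9 reads, which were not chosen, had ratios of 1.09 for replicate 1, 0.538 for replicate 2, 2.12 for poly(A) RNA and 1.19 for run-on. The rule on 10 reads counts shCuff reads too, and the shCuff libraries were deeper (23739580 against 19851586 reads summed), so bins high in shCuff alone could enter.

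Bin by bin, 120 of the 491 bins were deep enough for the test of total RNA, and 5 of them rose in shCuff while 0 fell, at an adjusted p under 0.05 in edgeR's quasi-likelihood test over all 27388 bins tested. Over the genome 0.0767% of bins rose and 0.0292% fell (21 and 8 bins). At an unadjusted p under 0.05, 19 of the 120 were higher and 0 lower, beside 2.04% and 2.58% of all bins tested. DESeq2 called 3 of the 120 higher and 0 lower, beside 0.0621% and 0.0402%. The fitted change was positive in 101 and negative in 19 of the 120, with a median log2 change of 1.13, beside -0.02 over all bins tested. The filter of this test, a mean of at least 1 RPKM over the 4 libraries, counts shCuff reads too. Bins high in shCuff alone could therefore pass it, and these counts and the median are given as a description. Of the 120, 70 had 0 reads in both replicate 2 libraries, so that their estimates rest on 1 pair. No called bin carries a name in the sources used here, and what each is known to encode is therefore not stated.

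The 2 bins with the lowest adjusted p adjoin each other and make up 2 kb of sequence flanked by bins with no reads. Reads of single bins are given below in the order total RNA replicate 1, total RNA replicate 2, poly(A) RNA and run-on. Bin 1338001 had 820, 147, 2820 and 0 reads in the shCuff libraries, against 4, 0, 1 and 0 in the control libraries. Bin 1337001 had 397, 264, 1851 and 14 reads in the shCuff libraries, against 1, 3, 0 and 0 in the control libraries. All 3 shCuff RNA libraries were far above all 3 shWhite RNA libraries in both bins. The bins were picked by the test of total RNA, so for the total RNA libraries this follows from the pick. The poly(A) libraries were not in that test, but they belong to the first set. Bin 1338001 rose by a log2 change of 8.03 (SE 0.77, adjusted p = 4.24e-07, edgeR) and bin 1337001 by 7.17 (SE 0.76, adjusted p = 1.47e-06, edgeR). In poly(A) RNA they held 16.9% and 11.1% of all Uextra reads of the shCuff library, and 0.0303% and 0% of those of the shWhite library. The 0 reads of bin 1338001 in run-on stand beside its high steady-state RNA, and the floor for a count of 0 is 3 reads per library.

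The other 3 called bins lay far from these and from each other. Bin 4649001 had 220, 40, 1089 and 0 reads in the shCuff libraries, against 0, 1, 2 and 0 in the control libraries (log2 change in total RNA 7.47, SE 1.11, adjusted p = 0.000513, edgeR). Bin 9061001 had reads in the shCuff libraries of the first set alone, 174 in total RNA and 732 in poly(A) RNA, and 0 in every other library (log2 change 9.62, SE 1.67, adjusted p = 0.00477, edgeR). Its fitted change depends on the prior count, and against a floor of 3 reads in shWhite replicate 1 it was at least 66.0-fold higher in shCuff replicate 1. Bin 438001 had 5, 295, 27 and 23 reads in the shCuff libraries, against 0, 5, 4 and 11 in the control libraries (log2 change 5.51, SE 1.14, adjusted p = 0.0410, edgeR). It was high in shCuff replicate 2 above all, and so was its neighbour 439001, which had 12, 274, 36 and 97 reads in the shCuff libraries, against 2, 4, 11 and 27 in the control libraries. Bin 439001 did not pass the test (adjusted p = 0.109, edgeR). Without the term for library set none of the 5 was called, with all 4 libraries in the fit. Fits of 3 libraries lack that term too, so a call lost in them cannot be put down to the library alone. Without shCuff replicate 2 such a fit kept 4 of the 5 calls and lost that of bin 438001. Without shCuff replicate 1, without shWhite replicate 1 or without shWhite replicate 2 it kept 0 calls, and without shCuff replicate 1, 2 other Uextra bins were called lower. The log2 changes in these fits were 5.14 to 12.6 for bin 1338001 and 6.33 to 8.19 for bin 1337001.

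The excess rested on few bins in RNA and on more bins in run-on. Ranked by their gain in RPM, 4 bins made up 50% of the summed gains in poly(A) RNA, 8 bins in the total RNA replicate 1 pair, 7 bins in the replicate 2 pair and 23 bins in run-on. The single bin with the largest gain made up 22.1% of the gains in poly(A) RNA, 17.6% in the replicate 1 pair (bin 1338001 in both), 10.5% in the replicate 2 pair (bin 380001) and 15.8% in run-on (bin 24321001). The 5 called bins together held 50.9% of the gains in poly(A) RNA, 34.8% for replicate 1 and 20.3% for replicate 2, but 0.226% in run-on.

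Leaving out the bins with the largest gains takes away excess by construction, and how fast the ratio fell differed between assays. Without the 5 bins with the largest gain the ratio was 1.60 for replicate 1, 4.14 for replicate 2, 2.24 for poly(A) RNA and 2.30 for run-on. Without the 20 bins with the largest gain it was 1.34 (1.27 to 1.41), 1.90 (1.69 to 2.14), 1.73 (1.65 to 1.81) and 2.30 (2.21 to 2.39) in the same order. Without 75 bins the ratio for replicate 1 was 1.02 (0.966 to 1.08), and without 50 bins that for replicate 2 was 0.704. In poly(A) RNA the ratio was higher without 30 bins (2.45) than without 20, since bin 1682001, rank 24 by gain, held many reads in both genotypes.

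**Figure D2:**
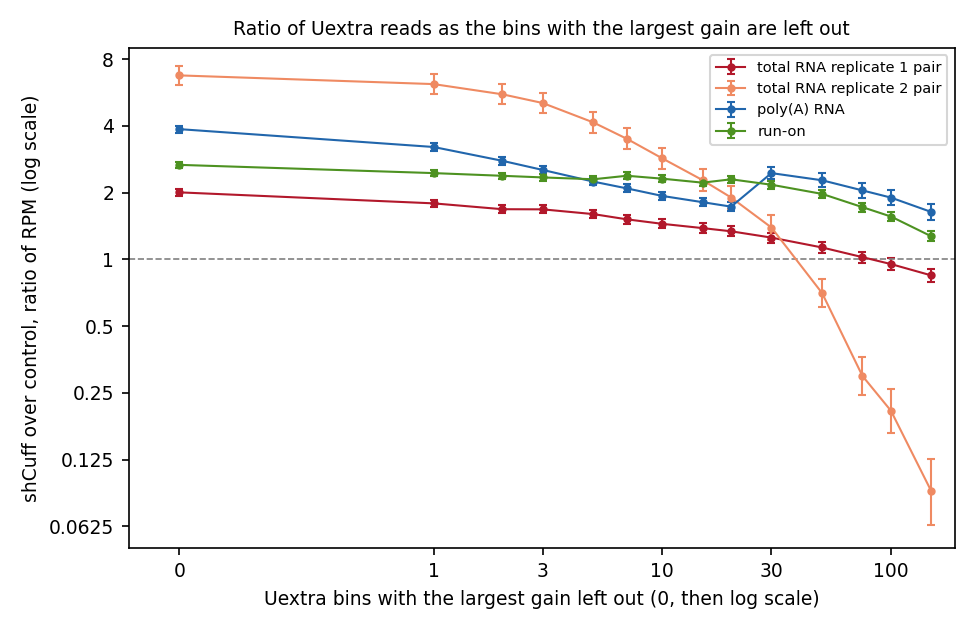
Ratio of Uextra RPM, shCuff over control, after leaving out the Uextra bins with the largest gain in each comparison. The x axis is the number left out (0, then a log scale), the y axis is a log scale, and bars are 95% intervals for counting error. Run-on falls least, from no bins left out (2.67) to 20 left out (2.30), and the total RNA replicate 2 pair falls most.

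Counted per bin, a difference of at least 2-fold on log2(RPM + 0.1) was more often towards a higher than a lower level in shCuff. In poly(A) RNA 158 of the 491 bins were at least 2-fold higher and 22 lower, beside 8.43% and 7.68% of all genome bins with at least 10 reads. In run-on 239 were higher and 33 lower, beside 26.7% and 21.9%. In the total RNA replicate 1 pair 157 were higher and 41 lower, beside 18.0% and 11.4%. For the replicate 2 pair 71 (14.5%) were higher and 41 (8.35%) lower, beside 22.6% and 32.2%. Both shares of the replicate 2 pair were thus below those of the genome. A bin with reads in neither library of a pair counts here as unchanged. That held for 188 of the 491 in the replicate 1 pair and for 374 in the replicate 2 pair. Over bins with at least 10 reads in the 2 libraries compared, 100 of 139 were higher and 1 lower in poly(A) RNA (genome 9.42% and 4.21%), 191 of 268 and 14 in run-on (27.1% and 19.1%), 69 of 125 and 2 in the replicate 1 pair (13.0% and 4.39%), and 59 of 64 and 2 in the replicate 2 pair (35.3% and 23.5%).

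A filter that uses control reads alone lowered these counts. Among the 176 bins with at least 10 reads over the 4 control libraries, 56 were at least 2-fold higher and 9 lower in poly(A) RNA (genome 8.94% and 8.40%). In run-on 74 were higher and 23 lower (16.0% and 25.8%), and in the replicate 1 pair 48 were higher and 14 lower (18.9% and 11.9%). In the replicate 2 pair 23 were higher and 21 lower (16.3% and 37.3%), so the excess of higher bins was not seen there under this filter.

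Uextra bins were more often without reads in the second library set than bins elsewhere. Of the 491 bins, 110 (22.4%) had 0 reads in all 4 libraries of the second set, beside 0.371% of genome bins with at least 10 reads and 4.35% of those of U. In the other direction Uextra was near the rest: 115 (23.4%) had 0 reads in all 4 of the first set, beside 25.6% of genome bins and 30.4% of those of U, and 266 had reads in both sets. In the replicate 2 total RNA libraries 374 of the 491 (76.2%) had 0 reads in both, beside 20.4%. Across the 491 bins the levels of shWhite replicate 1 and shWhite replicate 2 had a Spearman rho of 0.19, beside 0.82 over the arm bins with at least 10 reads. This is a description across bins of 1 library each. Only 8 bins had reads in all 8 libraries (1.63%, beside 34.4% of genome bins).

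**Figure D3:**
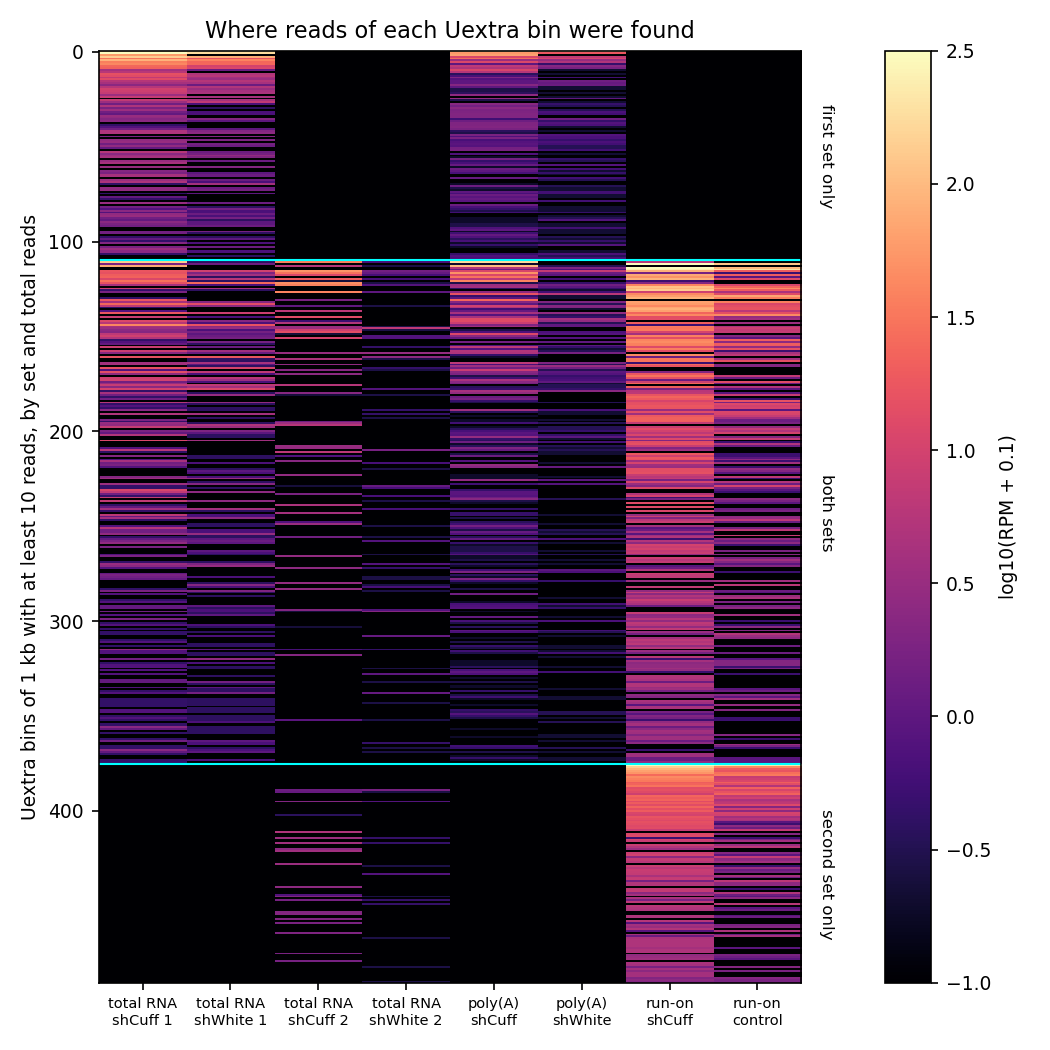
Level of each of the 491 bins (rows) in the 8 libraries (columns, shCuff left of its control), as log10(RPM + 0.1). Rows are grouped into bins with reads in the first set alone (110), in both sets (266) and in the second set alone (115), and ordered by total reads within a group. Black cells have no reads, and run-on is the assay that fills the second-set group.

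Bins of the first set alone had smaller summed ratios than bins with reads in both sets, whereas medians per bin were closer. Over those 110 bins the summed ratio of shCuff over shWhite was 1.54 (1.46 to 1.62) in the total RNA replicate 1 pair and 1.80 (1.71 to 1.89) in poly(A) RNA. Over the 266 bins with reads in both sets it was 3.94 (3.67 to 4.24) for replicate 1, 11.6 (10.1 to 13.4) for replicate 2, 12.0 (11 to 13.0) in poly(A) RNA and 3.31 (3.19 to 3.45) in run-on. Over the 115 bins of the second set alone it was 8.20 (5.66 to 12.3) in the replicate 2 pair and 2.16 (2.04 to 2.28) in run-on. Bins with many reads weigh most in these sums, such as 1682001 in the first set alone and 1338001 in both sets. Per bin, with at least 10 reads in the 2 libraries compared, the median log2 ratio for replicate 1 was 1.12 in the first set alone. It was 1.30 for bins of both sets, and in poly(A) RNA the medians were 1.52 and 1.77. Of these 115 bins, 88 had reads in run-on and none in RNA, with a summed run-on ratio of 2.21 (2.08 to 2.34). The alternative restricted to bins with total RNA reads in both sets was added after the data were seen; it gave ratios of 4.90, 9.24, 26.2 and 4.32 in the replicate 1 pair, the replicate 2 pair, poly(A) RNA and run-on.

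The highest bins in control total RNA belonged mostly to the first set. Bin 1682001 had 581, 0, 2145 and 0 reads in the shCuff libraries, against 945, 0, 1597 and 0 in the control libraries. It had the largest loss in RPM in total RNA (ratio 0.700 for replicate 1), its poly(A) levels were near equal (ratio 1.03, 0.963 to 1.10), and it held 48.5% of all Uextra reads in the shWhite poly(A) library. Bin 19796001 had 885, 0, 618 and 0 reads in the shCuff libraries, against 593, 0, 146 and 0 in the control libraries, with ratios of 1.70 in total RNA and 3.24 in poly(A) RNA. The other bins among the 10 highest in shWhite total RNA were 25452001, 12779001, 15027001, 28615001, 28018001, 14662001, 16985001 and 26825001. Of these, 15027001 was the only one with shCuff reads in the replicate 2 pair, where it had 347 in shCuff and 1 in shWhite, whereas the replicate 1 pair had 46 in shCuff and 84 in shWhite. The pairs of bin 15027001 thus went in opposite directions. Apart from 1682001 and 14662001, the bins with the largest losses (15459001, 17337001 and 5224001) had at most 37 reads in a shWhite library, and none was called lower.

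The bins that led run-on were others. Bin 24321001 had 5, 0, 1 and 2104 reads in the shCuff libraries, against 4, 0, 0 and 304 in the control libraries (run-on ratio 6.72, 5.96 to 7.60). Bin 21582001 had 0, 0, 56 and 964 reads in the shCuff libraries, against 0, 0, 15 and 233 in the control libraries (run-on ratio 4.02). Bin 21297001 had no RNA reads and, in run-on, 816 in shCuff and 578 in the control (ratio 1.37). These bins thus held many run-on reads and few or no reads in the RNA libraries, and the reason was not tested. Bin 20316001 had 604 run-on reads in shCuff and 484 in the control (ratio 1.21), and 13 poly(A) reads in shCuff and 5 in shWhite. Bin 18986001 had 152 run-on reads in shCuff and 175 in the control, the only one of the 5 highest in control run-on with a ratio under 1 (0.843, 0.674 to 1.05). Bins 22314001, 26878001 and 14115001, also among the 5 with the largest gains in run-on, had 334, 351 and 281 run-on reads in shCuff, against 47, 106 and 58 in the control. The run-on control lacked a hairpin, so that a difference in run-on cannot be told apart from one between the control genotypes.

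The poly(A) share of Uextra RNA was low. Over the first set, RPM in poly(A) RNA divided by RPM in total RNA was 0.596 (0.580 to 0.613) in shCuff and 0.309 (0.295 to 0.324) in shWhite, beside 0.974 in shCuff and 0.937 in shWhite on the arms. Per bin, with at least 10 reads in the 2 libraries, the median log2 ratio was -0.70 over 184 bins in shCuff and -3.04 over 73 bins in shWhite, beside -0.11 in shCuff and -0.14 in shWhite over the arms. Without bin 1682001 the summed ratio was 0.563 in shCuff and 0.205 in shWhite. Among the 69 bins measurable in both genotypes the share was higher in shCuff in 39 and lower in 30, beside 55.0% and 45.0% of genome bins, with a median difference of 0.25 on the log2 scale and summed ratios of 0.389 in shCuff and 0.321 in shWhite. The 115 bins with at least 10 reads in shCuff alone had a ratio of 0.987 (0.945 to 1.03) in shCuff and 0.470 (0.386 to 0.573) in shWhite. Over the bins measurable in both genotypes the summed ratios were thus closer than over all bins, and poly(A) RNA has no replicate that would allow a test.

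The called bins had shares near those of the arms, and most bins high in control total RNA had lower ones. In shCuff the ratio of poly(A) over total RNA was 0.928 in bin 1338001, 1.26 in bin 1337001, 1.34 in bin 4649001 and 1.14 in bin 9061001. Bin 1682001 had 0.996 in shCuff and 0.678 in shWhite. The ratio was 0.188 in shCuff and 0.0988 in shWhite for bin 19796001, and 0.0833 in shCuff and 0.0887 in shWhite for bin 25452001. Bin 14662001 had 1 read in shCuff and 0 reads in shWhite in poly(A) RNA, and 48 reads in shCuff and 58 in shWhite in total RNA.

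**Figure D4:**
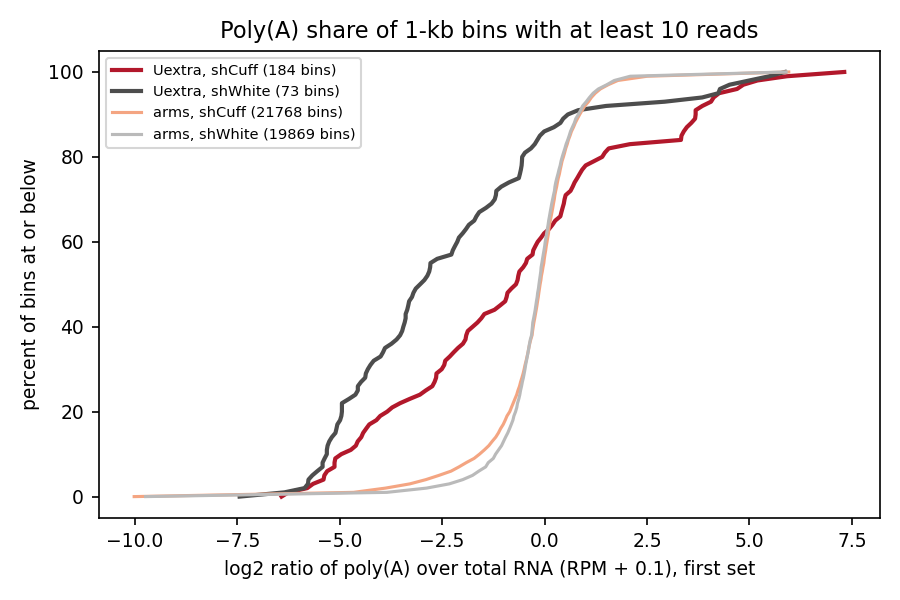
Cumulative share of bins (y axis, percent) against the log2 ratio of poly(A) over total RNA in the first set (x axis), for Uextra bins (thick lines) and arm bins (thin lines) with at least 10 reads in the 2 libraries. Uextra has a median of -0.70 in shCuff and -3.04 in shWhite, both left of the arms, whose medians are -0.11 in shCuff and -0.14 in shWhite.

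Ratios of single bins in total and poly(A) RNA moved together within the first set. Across the 61 bins with at least 10 reads in each, the log2 ratios of the replicate 1 pair and of poly(A) RNA had a Spearman rho of 0.77 (0.37 over the arm bins), and 53 were higher in shCuff in both and 2 lower in both. The 4 libraries share a set, and whether they share flies is not stated. Between the pairs of total RNA rho was 0.09 over 25 bins (also 0.09 over the arm bins). Of the 25, 21 were higher in both and 1 lower in both. These counts and those of the 61 bins have no genome share beside them. The filter of 10 reads counts shCuff reads too, so bins high in shCuff pass it more readily.

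**Figure D5:**
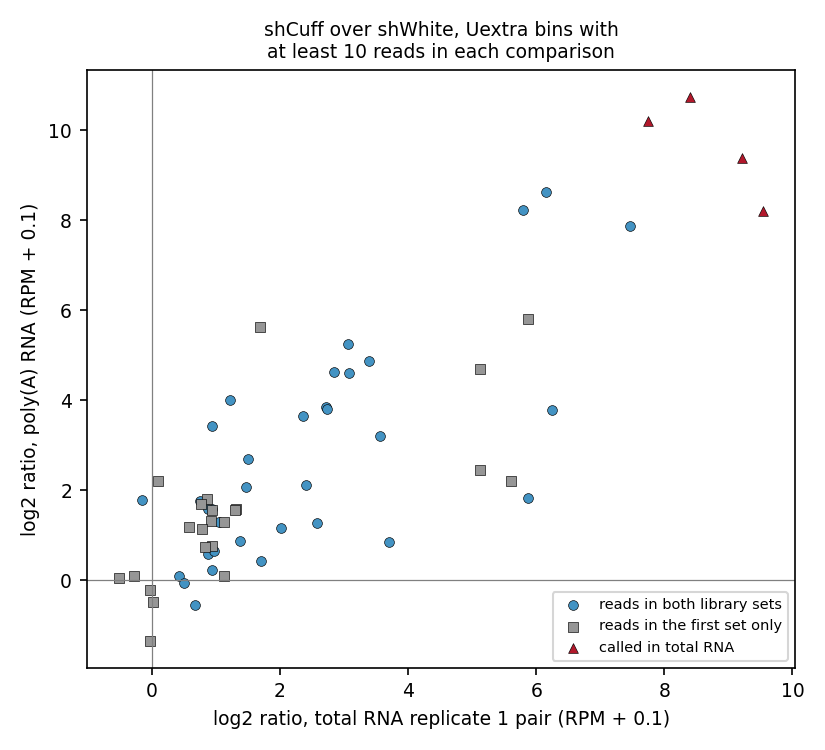
Log2 ratio of shCuff over shWhite in poly(A) RNA (y axis) against the total RNA replicate 1 pair (x axis) for the 61 Uextra bins with at least 10 reads in each comparison (RPM + 0.1). Triangles mark the 4 bins called in total RNA that have enough reads here, squares the 23 bins with reads in the first set alone, and circles the 34 other bins. The triangles lie at the upper right.

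Some bins were higher in shCuff in every comparison. Of the 49 bins with at least 1 read in each of the 4 comparisons, 27 had the higher RPM in shCuff in all 4 (55.1%, beside 7.08% of genome bins). Bin 548001 alone had the lower RPM in all 4 (2.04%, beside 10.3%). The reads that let a bin enter here can all come from shCuff libraries, so bins high in shCuff enter more readily. These counts are given as a description. The 8 bins with reads in all 8 libraries (380001, 381001, 439001, 528001, 529001, 563001, 1484001 and 2047001) were all among the 27. No genome share for bins with reads in all 8 libraries stands beside that count. Of the 27, 20 lay in the first 5 Mb, as did 29 of the 49. Bin 380001 had 50, 389, 119 and 211 reads in the shCuff libraries, against 31, 8, 61 and 47 in the control libraries. Bin 2047001 had 46, 223, 541 and 4 reads in the shCuff libraries, against 6, 6, 10 and 1 in the control libraries (total RNA log2 change 3.98, SE 0.87, adjusted p = 0.0644, edgeR), which did not pass the test. Bin 1484001 had 60, 89, 128 and 183 reads in the shCuff libraries, against 13, 3, 7 and 48 in the control libraries, and its adjusted p in edgeR was 0.479. Bins 381001, 439001, 528001, 529001, 548001, 563001, 1484001 and 1675001 are outside the rule that chose the other named bins and were picked after their values were seen.

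Some bins had reads in 1 genotype alone. Of the 491, 72 had 0 reads in the 4 control libraries (14.7%, beside 5.38% of genome bins and 15.2% of those of U) and 4 had 0 reads in the 4 shCuff libraries (0.815%, beside 1.35% and 7.76%). The 72 reached 10 reads through the deeper shCuff libraries alone, so their number follows in part from the rule and is given as a description. The 72 had a median of 16.5 shCuff reads, and 2 of them, 9061001 with 906 and 1675001 with 319, had at least 100. Bin 1675001 had 52 reads in shCuff replicate 1, 12 in shCuff replicate 2, 255 in shCuff poly(A) RNA and 0 in shCuff run-on. The 72 bins together held 4.91% of Uextra reads in shCuff replicate 1, 9.53% in shCuff replicate 2, 7.61% in shCuff poly(A) RNA and 4.17% in shCuff run-on.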

How the data were processed

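Total RNA, poly(A) RNA and nuclear run-on of ovaries were measured in 8 libraries, and 6 of the 14 listed samples were not analysed here. The tools cutadapt and Bowtie 0.12.7 and the build dm3 are named, without their roles, in the submitters' processing notes; how reads were filtered and counted is not given in the sources used here. In each table the authors deposited, column 6 is the count of reads per 1-kb bin, without strand, and in the second set 1 to 8 bins were not whole; such deposited numbers are estimated counts here, rounded to whole reads. Column 5 holds the authors' RPKM values. RPM, and the RPKM of the filter and of limma, were computed from the counts and library totals.

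Counts were tested with edgeR 4.0.16 (R 4.3.3), quasi-likelihood, with library totals as library sizes and terms for library set and genotype; the minimum mean was 1 RPKM per bin, and p-values were adjusted by Benjamini-Hochberg over all bins at a threshold of 0.05. The standard error was taken from the log2 change and its F statistic. Alternatives were TMM factors, totals without the most abundant bin, arm reads as totals, DESeq2 1.42.0, limma 3.58.1 on log2(RPKM + 1) and log2(RPKM + 0.1), other filters and pseudocounts, no term for set, and each library left out, which also drops the term for set. The scripts were tested on simulated counts.

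The library set in the titles pairs the libraries. Deviations from the group means correlated within a set at 0.587 over 27388 bins and at 0.596 over the 120 Uextra bins tested. Poly(A) RNA and run-on have 1 library per group and no test. Intervals (95%) and the floor of 3 reads for a count of 0 cover counting error only. The bins named are every called bin, the 10 highest in shWhite total RNA, the 5 highest in shWhite poly(A) RNA and in control run-on, and the 5 with the largest gain or loss in total RNA and the largest gain in each of poly(A) RNA and run-on. The members and lists were chosen with earlier results of these data known.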

Additional observations from a re-analysis of the deposited data

How the results depend on the processing

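Called Uextra bins in total RNA numbered 5 higher and 0 lower in the reported fit. The count of higher bins was 2 with TMM factors, 3 with totals without the most abundant bin, 3 in DESeq2, 0 in limma with either pseudocount (25 and 22 bins at an unadjusted p under 0.05 with 1 and 0.1 RPKM) and 7 with no filter or with a filter of 10 reads. With no replicate block, that is without the term for library set, it was 0, with 10 bins at an unadjusted p under 0.05. Leaving out one library, which also drops that term, gave 0 to 4 higher and 0 to 2 lower. For the summed reads of Uextra, the log2 change of 1.87 was 1.84 in DESeq2 (adjusted p = 0.00261) and 1.87 with no filter (adjusted p = 0.000107), 0.04 and 0.29 in limma with 1 and 0.1 RPKM, and 1.18 with no replicate block. With one library and the term for set left out it was -0.40 to 4.34, with -0.40 without shCuff replicate 1, where shCuff replicate 2 is set against shWhite of both sets; the 2 choices cannot be told apart there.

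Ratios over control moved with the bins included, in the order total RNA replicate 1 pair, replicate 2 pair, poly(A) RNA and run-on. Over bins with at least 10 reads they were 2.18, 11.2, 4.12 and 2.91. Without the bin with the most reads the replicate 1 pair had 2.37, poly(A) RNA 6.53 and run-on 2.45. Without the 10 bins with the most reads the replicate 2 pair had 2.85 and poly(A) RNA 3.06. Alternatives chosen after seeing the data gave 1.60, 4.14, 2.24 and 2.30 without the 5 largest gains, 1.34, 1.90, 1.73 and 2.30 without the 20 largest, and 4.90, 9.24, 26.2 and 4.32 over bins with total RNA reads in both sets. Without the 5 called bins the first 3 were 1.58, 5.53 and 2.36. The poly(A) to total ratio in shWhite, 0.309, was 0.259 without 10 bins, 0.205 without 1 bin, 0.327 with totals without the most abundant bin, and 0.596 in shCuff.

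Counts past 2-fold moved with the pseudocount and filter. With a pseudocount of 1 RPM the replicate 1 pair had 83 higher and 2 lower, the replicate 2 pair 5 lower, and poly(A) RNA 63 higher and 0 lower. With a minimum of 10 control reads the replicate 1 pair had 48 and 14, the replicate 2 pair 23 and 21, poly(A) RNA 56 and 9, and run-on 74 higher. With 10 reads over the 2 libraries compared the replicate 1 pair had 69 and 2, the replicate 2 pair 2 lower, poly(A) RNA 100 and 1, and run-on 14 lower. Over the 5 called bins, 22 of the alternative values kept the call and 37 kept the direction but not the call. Bin 9061001 without shCuff replicate 1, where it had no reads, had a log2 change of 0 and is counted in neither. The cause was not tested. The 491 bins held a median of 26 reads over 8 libraries, and 120 of them passed the filter of the test.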
